A study of Mus musculus with 6 samples.

Results

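The peroxisome proliferator-activated receptors (PPARs), the retinoid X receptors (RXRs) they pair with, and the PGC-1 coactivators with the estrogen-related receptors (ERRs) that work with them were followed in atria of obese and lean mice. These are 10 genes, chosen by name: Ppara, Ppard and Pparg; Rxra, Rxrb and Rxrg; Ppargc1a and Ppargc1b; and Esrra and Esrrg. All 10 were found, each in a single row, among the 43432 genes of the deposited table, where names are written in capitals, and all 10 were among the 15275 genes tested. Wild-type C57/Bl6J mice were given a high fat diet (HFD) or control chow from 6 weeks of age for 10 weeks, and RNA was taken from right and left atrial tissue. The obese group (HFD) and the lean group (control chow) held 3 samples each, and no allele or agent other than the diet was named for either. Whether a sample came from a single animal is not given in the sources used here, so the p-values measure the spread between samples. The labels contradict each other: the diet was taken from the sample titles, which match the column names of the table, while the treatment field gives the opposite diet for all 6 samples, so each direction below rests on the titles. Values are normalized counts, that is, reads on a gene divided by a single scaling factor for the sample.

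PPARs are nuclear receptors that bind fatty acids and their derivatives, and each binds DNA as a heterodimer with an RXR. PPARα and PPARδ drive genes of fatty acid oxidation in heart muscle, while PPARγ is best known as the regulator of adipocyte differentiation. PGC-1α and PGC-1β do not bind DNA themselves. They are recruited by PPARs, ERRs and other factors and raise transcription of genes for mitochondrial biogenesis and oxidative metabolism, with ERRα and ERRγ as the main receptors for the respiratory chain.

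Reads on genes ranged from 15874251 to 28971508 per sample, with the highest total in lean sample 2, and a floor of 3 reads stood at 2.05 to 3.41 normalized counts, counting error only. Lean sample 2 stood apart, with mitochondrial genes taking 30.7% of its reads, a share of 19.5% to 24.4% elsewhere, and with a summed level of 5 ventricular myocyte markers of 14537 against 5353 to 7138. The tissue label was matched by atrial myocyte markers, since Nppa, Myl7, Myl4, Sln, Tbx5 and Nr2f2 summed to 287078 to 518132 in obese and 442423 to 486138 in lean samples. All 5 lymphocyte markers had a mean under 10. Fat cell markers, which matter for Pparg, are given beside that gene. In bulk tissue, fewer cells of a type and less RNA per cell cannot be told apart.

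None of the 10 genes differed between obese and lean atria at an adjusted p under 0.05 (limma with Benjamini-Hochberg adjustment over all genes tested), which 0.746% of all genes tested did. At an unadjusted p under 0.05 there were 2, Pparg and Ppargc1a, both with higher means in obese atria, where 12.2% of all genes passed in either direction, 6.66% with higher and 5.55% with lower values in obese atria. The obese and lean values overlapped for all 10, whereas 18.0% of all genes did not overlap. The log2 fold change (obese minus lean, on log2 of the normalized count plus 1) was above 0 for 8 of the 10, against 50.8% of all genes, and its median was 0.08 against 0.00. The smallest and largest were -0.12 for Ppargc1b and 0.56 for Pparg. No gene of the 10 was called under any of the 16 other settings, edgeR and DESeq2 on recovered reads included. Over all genes tested DESeq2 called more than limma, 292 higher and 178 lower in obese atria against 74 and 40.

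**Figure D1:**
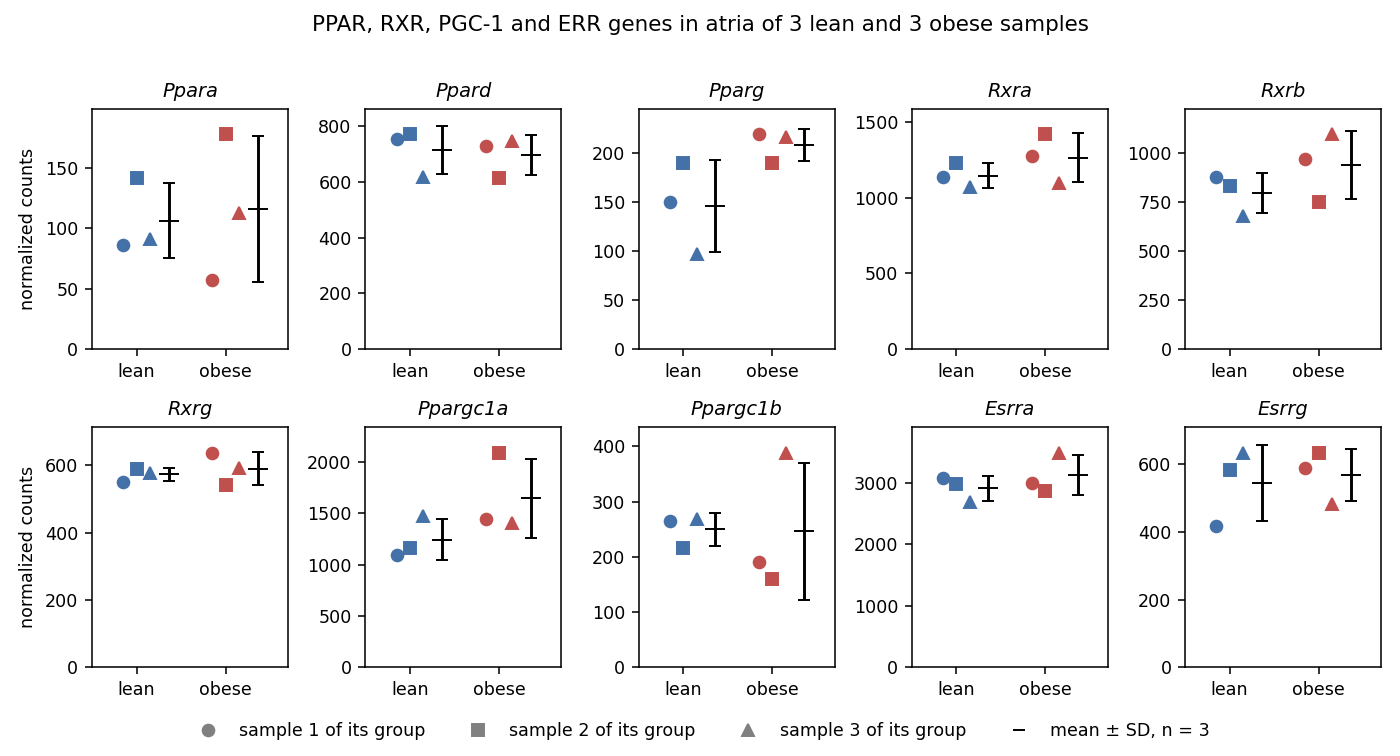
Normalized counts (vertical axes, each starting at 0) of the 10 genes in the 3 lean and 3 obese samples; symbols mark the sample number within a group, and the black bar gives mean ± SD (n = 3). Obese and lean points overlap in every panel. Relative to the mean, the spread is widest for Ppara (57.3 to 177) and Ppargc1b (160.1 to 388) among obese samples.

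Transcripts were first ranked by level, as normalized counts per kilobase of exon, since counts alone favour long genes. In lean atria Esrra was highest at 664 ± 46.2 per kilobase (SD, n = 3). It was followed by Rxrg at 249.1 ± 8.94, Rxra at 209 ± 15, Rxrb at 200.4 ± 25.9 and Ppargc1a at 188 ± 30.4. Lower were Ppard at 95.1 ± 11.3, Esrrg at 87.7 ± 18.2, Ppargc1b at 62.6 ± 7.47, Pparg at 49.4 ± 15.8 and Ppara at 27.7 ± 8.03. The 3 lean values did not overlap between the neighbours Esrra and Rxrg, Rxrg and Rxra, and Ppargc1a and Ppard, and all other neighbours overlapped. In obese atria the order began with Esrra at 711 ± 74.3 and Rxrg at 257 ± 21.0, followed by Ppargc1a at 249.8 ± 58.4, Rxrb at 236 ± 43.6 and Rxra at 231 ± 29.4. It went on with Ppard at 92.9 ± 9.53, Esrrg at 91.4 ± 12.5, Pparg at 70.5 ± 5.45, Ppargc1b at 61.8 ± 31.1 and Ppara at 30.2 ± 15.7. The neighbours that did not overlap there were Esrra and Rxrg, Rxra and Ppard, and Esrrg and Pparg. Esrra thus stood clear of the other 9 in both groups, and all 3 PPAR genes lay below all 3 RXR genes in both.

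**Figure D2:**
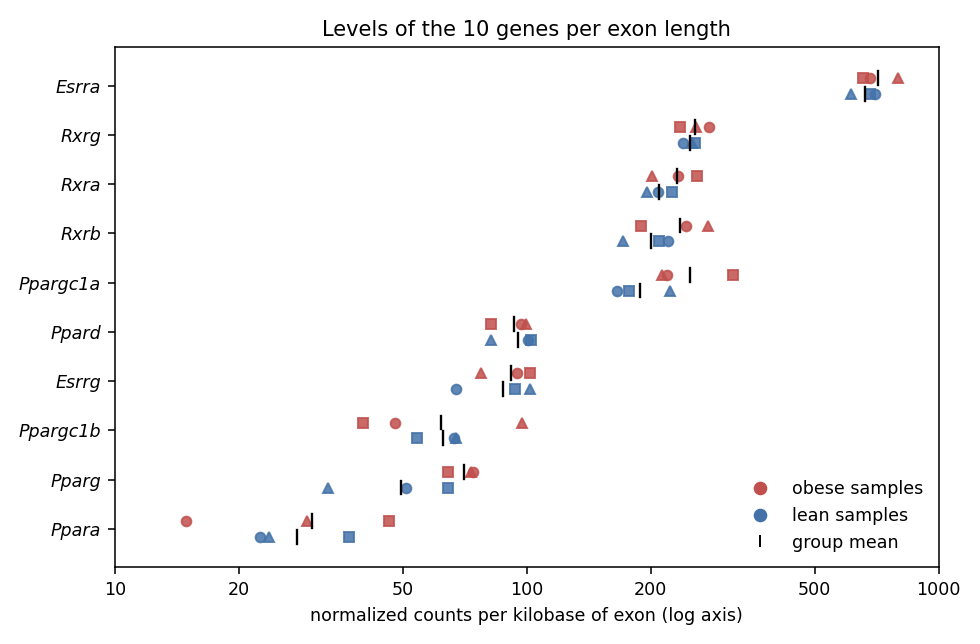
Normalized counts per kilobase of exon (horizontal log axis) of the 10 genes in each lean and obese sample, with a tick at each group mean. Esrra is apart at the top, the RXR genes and Ppargc1a lie together with group means of 188 to 257, and Ppara is lowest with means of 27.7 and 30.2.

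For the 2 genes with the smallest unadjusted p, the promoters were read from RefSeq (GRCm38.p6) as windows from 250 bases before to 50 bases after a start site. The promoter of Ucp3, a PPAR target that rose in obese atria, is shown beside them as a single example. Capitals mark matches to AGGTCA, the core that nuclear receptors recognise, and to CGTCA, part of the cAMP response element through which CREB acts. Both strands were searched, also for the PPAR and RXR element (AGGTCA, any 1 base, AGGTCA again), for TCAAGGTCA, the ERR element, and for TGACGTCA, the full cAMP response element. AGGTCA lies inside the first and the second of these, and CGTCA inside the last. Pparg has 3 windows, of which the first (chr6:115360894-115361193, plus strand) and the second (chr6:115362099-115362398, plus strand) each hold an AGGTCA, beginning 28 and 9 bases before the start.
Pparg window 1: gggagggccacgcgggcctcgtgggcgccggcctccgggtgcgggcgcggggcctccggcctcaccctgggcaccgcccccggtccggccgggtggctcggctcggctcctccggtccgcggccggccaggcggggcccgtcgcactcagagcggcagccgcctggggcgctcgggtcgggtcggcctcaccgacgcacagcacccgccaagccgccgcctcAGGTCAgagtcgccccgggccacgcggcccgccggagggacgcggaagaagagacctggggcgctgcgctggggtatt
Pparg window 2: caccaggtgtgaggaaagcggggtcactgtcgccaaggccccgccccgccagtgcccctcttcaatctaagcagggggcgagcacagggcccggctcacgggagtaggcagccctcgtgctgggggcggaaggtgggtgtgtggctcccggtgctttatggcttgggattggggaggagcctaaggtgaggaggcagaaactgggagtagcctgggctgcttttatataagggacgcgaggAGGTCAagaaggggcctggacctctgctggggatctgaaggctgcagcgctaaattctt
The Ppargc1a window (chr5:51567676-51567975, minus strand) holds no AGGTCA and a CGTCA beginning 49 bases before the start.
Ppargc1a: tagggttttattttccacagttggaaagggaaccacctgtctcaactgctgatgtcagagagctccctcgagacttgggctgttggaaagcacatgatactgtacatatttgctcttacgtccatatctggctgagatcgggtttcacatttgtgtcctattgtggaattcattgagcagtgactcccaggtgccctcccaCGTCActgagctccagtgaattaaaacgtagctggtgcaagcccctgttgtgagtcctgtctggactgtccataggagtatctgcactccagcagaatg
The Ucp3 window (chr7:100472741-100473040, plus strand) holds AGGTCA beginning 149 and 44 bases before the start, and a CGTCA in the transcribed part.
Ucp3: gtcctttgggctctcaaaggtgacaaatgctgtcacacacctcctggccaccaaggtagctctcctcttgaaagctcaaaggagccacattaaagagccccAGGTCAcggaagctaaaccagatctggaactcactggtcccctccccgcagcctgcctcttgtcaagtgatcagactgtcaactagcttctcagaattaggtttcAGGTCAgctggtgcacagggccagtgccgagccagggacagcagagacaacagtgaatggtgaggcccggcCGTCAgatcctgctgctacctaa

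RefSeq windows were found for 9 of the 10 genes (17 windows), the one not matched being Ppargc1b. AGGTCA was in 4 of these 17, those of Pparg, Rxra and Rxrg, against 16.3% of 32851 windows of all genes, in 8 of 33 windows of PPAR target genes and in 2 of 23 of PGC-1 and ERR target genes. Of 28 PPAR targets with a window, 7 held it: Acadm, Acadvl, Cd36, Cpt1a, Plin2, Plin5 and Ucp3. Angptl4 and Pdk4, the targets that rose most, were not among these 7, so Ucp3 does not stand for the targets that rose. CGTCA was in 4 of 17 (Ppara, Ppard, Ppargc1a and Rxrb) against 20.8% of all windows, in 8 of 33 of PPAR targets and in 10 of 23 of PGC-1 and ERR targets. Neither the PPAR and RXR element, in 0.0396% of all windows, nor TCAAGGTCA, in 0.423%, was found in a window of the 10 genes or of the target genes of either list. TGACGTCA, in 1.79% of all windows, was in none of the 17, in 0 of 33 of PPAR targets and in 2 of 23 of PGC-1 and ERR targets (Cycs and Mdh2). A match describes these letters only, and a window without one says nothing of binding elsewhere.

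Among the PPAR receptors, Pparg had the largest difference. The gene spans bases 115361221 to 115490401 of chromosome 6 in GRCm38. Obese samples 1, 2 and 3 had 219, 189.7 and 216 normalized counts, and lean samples 1, 2 and 3 had 150.0, 190.3 and 97.3. Obese samples 1 and 3 lay above all lean samples, and obese sample 2 fell just below lean sample 2, so that the groups overlapped. Obese atria averaged 208 ± 16.1 and lean atria 146 ± 46.6 (SD, 3 samples each), for a log2 fold change of 0.56 (SE 0.24, 95% interval 0.04 to 1.08, adjusted p = 0.373 from limma). With a library left out, the log2 fold change was 0.30 without lean sample 3 and 0.78 without lean sample 2, and over all 16 alternatives the adjusted p ran from 0.317 to 0.573. An unadjusted p under 0.05 was kept in 8 of them.

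Fat cell markers varied within both groups. The 8 white adipocyte markers summed to 19043, 12224 and 9749 in obese samples 1 to 3 and to 10974, 7989 and 5935 in lean samples 1 to 3, and 1 of the 8, Lipe, passed the test. Most of this sum was Pnpla2, which like Lipe also stands among the genes of fatty acid release below. The mean log2 value over the 8 genes was 9.23, 7.79 and 8.38 in obese and 8.92, 8.06 and 7.22 in lean samples 1 to 3. By this mean obese sample 2 was below lean samples 1 and 2. Of the 8 log2 fold changes 7 were above 0, and their median was 0.61. That median was 0.086 without obese sample 1 and 0.035 without lean sample 3. The 1 below 0 was Lep, leptin, at -1.41 on the log2 scale (limma, adjusted p = 0.526). Lep had low counts: a minimum of 10 in every sample left it out, and the 7 markers kept were all above 0. Adipoq, which encodes adiponectin, had 533, 146 and 170.4 in the obese and 334, 149 and 67.8 in the lean samples. The sample with the lowest Pparg, lean 3, was thus also lowest in Adipoq, while lean 1 was above lean 2 in Adipoq and below it in Pparg. The 6 brown adipocyte markers summed to 2989 to 4071 in obese and 2655 to 3649 in lean samples, most of it Cox8b, which heart atria also express. Of the 5 that could be tested, 2 rose in obese atria: Ucp1, the uncoupling protein of brown fat, with 706, 173 and 745 against 86.2, 5.48 and 15.3 (log2 fold change 4.43, adjusted p = 0.0446 from limma), and Cidea (1.21, adjusted p = 0.031), where 0.484% of all genes rose. That count of 2 was 0 without a variance trend and without obese sample 1, lean sample 2 or lean sample 3. It was 1 with edgeR, without obese sample 2, without lean sample 1 or with a minimum of 10 in every sample. It was 3 with DESeq2, without obese sample 3 or with the replicate block, where 292, 218 and 113 of all genes were higher. No defining marker of either list was at 0 in all samples, and the part of fat cells in the Pparg values was not tested. The 5 endothelial markers, of cells that also express Pparg, summed to 13328 to 14926 in obese and 11105 to 12007 in lean samples without overlap. Of these 5, 0 passed in limma. Of them 1 was higher in DESeq2, with a minimum of 10 in every sample and without obese sample 3 (292, 86 and 218 of all genes). Their part was not tested either.

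Ppara, the receptor for fibrate drugs, had the lowest mean of the 3 in both groups. Relative to its mean it had the widest spread of the 3 among obese samples. Its normalized counts were 57.3, 177 and 112 in obese samples 1 to 3 and 86.2, 142 and 90.7 in lean samples 1 to 3. The lowest and the highest of all 6 values were both obese, so the lean range lay within the obese range. Behind them were 57 reads in obese sample 1 and 174 in obese sample 2, with exact Poisson 95% intervals of 43.4 to 74.2 and 152 to 206 normalized counts, which do not meet and cover counting error only. The log2 fold change was 0.02 (SE 0.37, 95% interval -0.81 to 0.84, adjusted p = 0.993 from limma), an interval that spans folds from 0.571 to 1.79. Its sign turned with single libraries, from -0.36 without obese sample 2 to 0.45 without obese sample 1.

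Ppard, the most broadly expressed PPAR, had 729, 616 and 749 normalized counts in obese and 756, 771 and 616 in lean samples 1 to 3. Each group held 1 sample at 616 and 2 between 729 and 771, and the ranges nearly coincided. Ppard had a log2 fold change of -0.03 (SE 0.14, 95% interval -0.34 to 0.27, adjusted p = 0.959 from limma). Of the summed PPAR level per kilobase, Ppard made up 55.8 ± 4.78% in lean and 48.0 ± 4.91% in obese atria, Pparg 28.2 ± 4.01% and 36.5 ± 3.24%, and Ppara 16 ± 2.74% and 15.5 ± 8.06% (SD, n = 3 each). Ppard was the most abundant PPAR in each of the 6 samples. The log2 ratio of Pparg to Ppara within a sample, which does not depend on the scaling factor, was 0.54 higher in obese atria (exact permutation test, two-sided, p = 0.5, adjusted over 5 ratios 1). That of Ppard to Ppara differed by -0.05 (exact p = 0.9, adjusted 1). Groups of 3 against 3 cannot give a p below 0.1 in this test.

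The RXRs are the obligate partners of the PPARs and of several other receptors. Rxra, the main RXR of the developing heart, had 1275, 1418 and 1097 normalized counts in obese and 1135, 1229.8 and 1067 in lean samples 1 to 3. Obese samples 1 and 2 lay above all lean samples, and obese sample 3 between the lean ones. This gave a log2 fold change of 0.14 (SE 0.13, 95% interval -0.14 to 0.42, adjusted p = 0.725 from limma).

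Rxrb had 969, 752 and 1094 normalized counts in obese and 876, 833 and 679.9 in lean samples 1 to 3. Obese samples 1 and 3 were above all lean samples and obese sample 2 was second lowest of the 6. The difference on the log2 scale was 0.23 (SE 0.16, 95% interval -0.13 to 0.58, adjusted p = 0.625 from limma).

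Rxrg, the RXR typical of striated muscle, had 637, 541 and 591 normalized counts in obese and 549.8, 589.9 and 577 in lean samples 1 to 3. The lean values lay within the obese range, and the highest lean value was 1.07 times the lowest, the narrowest spread of any of the 10 genes in either group. The log2 fold change was 0.04 (SE 0.12, 95% interval -0.23 to 0.31, adjusted p = 0.935 from limma). Per kilobase the 3 RXR genes shared their sum nearly evenly, Rxrg with 37.9 ± 2.50%, Rxra with 31.8 ± 0.721% and Rxrb with 30.3 ± 2.65% in lean atria and 35.4 ± 1.21%, 32.1 ± 5.37% and 32.5 ± 4.95% in obese atria (SD, n = 3 each). The log2 ratio of Rxrg to Rxra differed by -0.10 between groups (exact permutation test, p = 0.8, adjusted 1).

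Ppargc1a encodes PGC-1α, a coactivator induced by exercise, fasting and cold, and spans bases 51454249 to 51567725 of chromosome 5 on the minus strand. Obese samples 1 to 3 had 1444, 2091 and 1405 normalized counts, and lean samples 1 to 3 had 1092, 1166 and 1470.1. Obese sample 2 was far above the other 5, obese samples 1 and 3 lay just below lean sample 3, and lean samples 1 and 2 were lowest. Obese atria averaged 1646 ± 385 and lean atria 1242 ± 201 (SD, 3 samples each), for a log2 fold change of 0.39 (SE 0.17, 95% interval 0.01 to 0.78, adjusted p = 0.391 from limma). Without obese sample 2 it was 0.21 and without lean sample 3 it was 0.52, and the adjusted p ran from 0.213 to 0.761 over the 16 alternatives, with an unadjusted p under 0.05 in 10 of them.

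Ppargc1b, on the minus strand of chromosome 18, encodes PGC-1β, the close relative of PGC-1α. It had 191, 160.1 and 388 normalized counts in obese and 265, 216 and 269 in lean samples 1 to 3. Obese sample 3 was highest of all 6 and obese samples 1 and 2 were lowest, so the lean samples sat inside the obese range. The log2 fold change was -0.12 (SE 0.29, 95% interval -0.76 to 0.51, adjusted p = 0.912 from limma), and it ran from -0.51 without obese sample 3 to 0.13 without obese sample 2. The log2 ratio of Ppargc1b to Ppargc1a was -2.91, -3.70 and -1.85 in the obese and -2.04, -2.43 and -2.45 in the lean samples, a difference of -0.52 (exact permutation test, p = 0.5, adjusted 1). Ppargc1a was highest in obese sample 2 and lowest in obese sample 3 within its group, and Ppargc1b the other way round.

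Esrra, which encodes ERRα, was the most highly expressed of the 10. It had 2996, 2871 and 3487 normalized counts in obese and 3068, 2986 and 2683 in lean samples 1 to 3. Obese sample 3 was above and lean sample 3 below the other samples, and the rest lay between 2871 and 3068. On the log2 scale the difference was 0.10 (SE 0.12, 95% interval -0.16 to 0.35, adjusted p = 0.801 from limma). Its exons share 73 bases with Trmt112 on the opposite strand and 91 bases with Mir6990 on the same strand, and since the sources do not say whether reads were counted by strand, reads there cannot be assigned with certainty. No exon overlap was found for the other 9 genes.

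Esrrg, which encodes ERRγ, had 589, 632 and 482 normalized counts in obese and 418, 582 and 634 in lean samples 1 to 3. The obese values lay within the lean range. Its log2 fold change was 0.07 (SE 0.18, 95% interval -0.32 to 0.46, adjusted p = 0.916 from limma), and the log2 ratio of Esrrg to Esrra differed by -0.02 (exact permutation test, p = 1, adjusted 1).

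Within the obese group the samples differed by gene rather than in 1 direction. Obese sample 2 was the highest of its group for 4 genes (Ppara, Rxra, Ppargc1a and Esrrg) and the lowest for the other 6. Obese sample 3 was highest for Ppard, Rxrb, Ppargc1b and Esrra and lowest for Rxra, Ppargc1a and Esrrg. The ratio of the highest to the lowest obese value was 3.10 for Ppara, 2.43 for Ppargc1b, 1.49 for Ppargc1a and 1.46 for Rxrb, and 1.31 or less for the other 6. In the lean group Pparg had the widest ratio, 1.96, before Ppara at 1.64 and Esrrg at 1.52. Cardiomyocyte markers also differed within the obese group, with 7 pan-cardiomyocyte genes summing to 575529, 712734 and 966929 in obese samples 1 to 3 against 834490 to 841315 in lean samples, and their part in the spread was not tested.

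**Figure D3:**
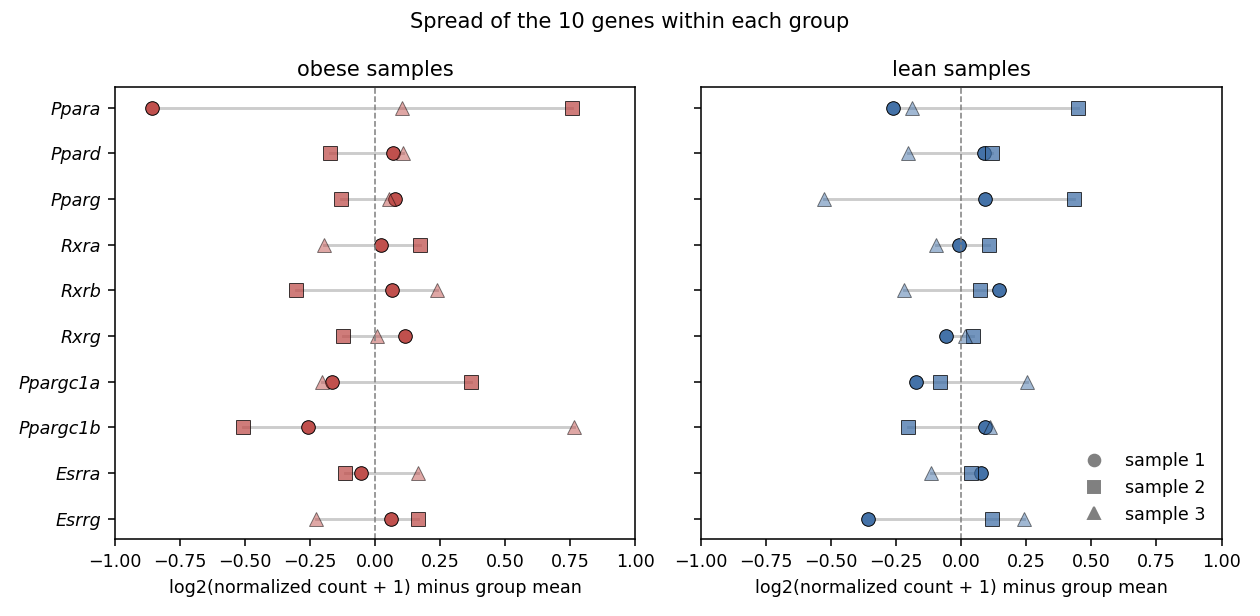
Deviation of each sample from its group mean on log2 of the normalized count plus 1 (horizontal axis), by gene, for lean and obese samples, with the sample number by symbol. In the obese panel Ppara reaches from -0.86 in sample 1 to 0.76 in sample 2 and Ppargc1b reaches 0.76 in sample 3; in the lean panel Pparg reaches from -0.53 in sample 3 to 0.43 in sample 2.

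Other genes of the pathway were read by list. Among 11 other nuclear receptors that pair with RXR or are close to those, 0 passed the adjusted threshold in limma, edgeR or DESeq2 and 1 limma's unadjusted one (12.2% of all genes), with a median log2 fold change of 0.17. That gene was Thra, thyroid hormone receptor α, with 1717, 1926 and 1589 normalized counts in obese and 2036, 2176 and 2257 in lean samples (log2 fold change -0.31, adjusted p = 0.301). Nr1h3, the oxysterol receptor LXRα, had 822, 633 and 701 against 598, 631 and 524 (0.29, adjusted p = 0.431). Nr4a2, Nr4a1, Rara and Rarb had log2 fold changes of 0.40, 0.62, 0.17 and -0.14. For Nr4a1 the value rested on obese sample 3, with 3249.6 against 533 to 1183 in the others, and it was -0.13 without that sample.

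Of 13 coactivators, 0 passed limma's adjusted threshold and 2 the unadjusted one, which 12.2% of all genes passed, and the median log2 fold change was 0.11. DESeq2 called 1 higher (Lpin1), with 292 of all genes higher. Limma without obese sample 3 called 1 lower, with 124 of all genes lower. Lpin1, lipin 1, a phosphatidate phosphatase that also acts with PGC-1α and PPARα, had 3914, 4874 and 3758 in obese and 2912, 3134 and 3241 in lean samples, without overlap (log2 fold change 0.43, adjusted p = 0.167 from limma). Smarcd3, a chromatin remodelling subunit of heart and muscle, had 864, 927 and 1381 against 1512, 1340.0 and 1522 (-0.49, adjusted p = 0.257). The histone acetyltransferases Ncoa3 and Crebbp and the Mediator subunit Med1 stood at 0.21, 0.19 and 0.18, and the arginine methyltransferase Prmt1 at -0.22. Of 12 corepressors and modulators of PGC-1, 0 passed either threshold in limma and 0 the adjusted one in DESeq2 or edgeR. Their median was 0.07, and values included 0.32 for Tbl1xr1, -0.27 for Hdac3, 0.26 for Mybbp1a, -0.24 for the AMPK subunit Prkaa2 and 0.12 for Cnot3.

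Genes that release or carry the fatty acids that PPARs bind formed another list. Of 9 tested, 2 rose in obese atria at an adjusted p under 0.05 (limma), where 0.484% of all genes did, 0 fell, and the median log2 fold change was 0.32. Lipe, hormone-sensitive lipase, had 3163, 2219 and 1862 normalized counts in obese and 1091, 725 and 643 in lean samples, a log2 fold change of 1.56 (SE 0.22, adjusted p = 0.0171). Mgll, monoacylglycerol lipase, had 2875, 2835 and 2867 against 2113, 1779 and 1781, a log2 fold change of 0.60 (SE 0.11, adjusted p = 0.0429). The obese samples were above all lean samples for both. The count of 2 was 0 without a variance trend and without obese sample 2, lean sample 2 or lean sample 3. In these settings 0, 14, 10 and 13 of all genes were higher. The count was 4 without obese sample 3 and 3 with DESeq2, where 218 and 292 of all genes were higher, against 74 in the main fit. It was 1 with edgeR, quantile normalization or mitochondrial genes left out (52 to 67 of all genes higher). Without obese sample 1 or lean sample 1 it was also 1 (33 and 39 of all genes higher). Mgll also missed the threshold in other alternatives, such as quantile normalization (adjusted p = 0.0545). Lipe also stands in the white adipocyte list. The fatty acid binding proteins Fabp4 and Fabp3 had log2 fold changes of 0.81 (adjusted p = 0.108) and 0.25 (0.47), the lipase Pnpla2 0.58 (0.328) and Lpl 0.32 (0.64).

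Known or proposed targets of PPARs had the highest median of the pathway lists. Of 34, Fgf21 was below the minimum level and 33 were tested. In obese atria 8 rose at an adjusted p under 0.05 (limma; 0.484% of all genes), 0 fell, 26 were higher at an unadjusted p under 0.05 (6.66% of all genes), and 25 did not overlap and were higher (8.86% of all genes). The median log2 fold change was 0.53, and 32 of 33 were above 0. The count of 8 moved with the model, from 0 without a variance trend to 20 with DESeq2, where 292 of all genes were higher. It also moved with single libraries, from 3 without lean sample 2 or 3 to 19 without obese sample 3 (218 of all genes higher). The count was 4 or 5 without any of the other 3. Several of these targets had been singled out in earlier results of these data, so the list is not independent evidence of its direction.

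Angptl4, an inhibitor of lipoprotein lipase, had 1851, 1418 and 1412 normalized counts in obese and 80.6, 33.5 and 32.8 in lean samples (log2 fold change 5.08, SE 0.30, adjusted p = 0.000116 from limma). Pdk4, the kinase that inhibits pyruvate dehydrogenase, had 58780.0, 64656 and 28363 against 5700.2, 4800.3 and 5656 (3.15, SE 0.26, adjusted p = 0.000719). Ucp3, a mitochondrial carrier of muscle whose promoter is printed above, had 1778, 2003 and 691 against 212, 244 and 151 (2.76, SE 0.35, adjusted p = 0.00937). For Pdk4 and Ucp3 obese sample 3 was lowest of its group, and still above every lean sample. Others that rose included Txnip, a regulator of glucose uptake (1.62), the acyl-CoA thioesterase Acot2 (1.57) and the lipid droplet proteins Plin5 (1.03) and Plin2 (0.88). Cpt1a, which takes fatty acids into mitochondria, and Cd36, a fatty acid transporter, missed the threshold with log2 fold changes of 0.86 (adjusted p = 0.0577) and 0.72 (0.0686). Acadm, medium-chain acyl-CoA dehydrogenase, stood at -0.02 (95% interval -0.28 to 0.23), the single value of the 33 below 0.

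Targets of PGC-1 and ERR, mostly of the respiratory chain and the citric acid cycle, were read in the same way. None of the 25 passed the adjusted threshold in limma, edgeR or DESeq2, and 0 had an unadjusted p under 0.05. The median log2 fold change was -0.14, and -0.064 without obese sample 2, and 21 of 25 were below 0. The groups did not overlap for 4 of 25, where 18.0% of all genes did not. These 4 were Ndufs1, a subunit of complex I (8808, 8242 and 9277 in obese against 9460.1, 10331 and 10162 in lean samples, log2 fold change -0.19, adjusted p = 0.55), Sdha of complex II (-0.14, 0.665), and the mitochondrial transcription factors Tfb1m (-0.28, 0.649) and Tfam (-0.15, 0.661). Cox6a2 of complex IV stood at -0.23, Uqcrc1 of complex III at -0.22 and Ndufa9 of complex I at -0.19. The highest value was 0.20, for Vegfa, a growth factor for blood vessels. With the 10 genes as the receptor side, the side-by-side medians were 0.08 for the 10, 0.53 for PPAR targets and -0.14 for PGC-1 and ERR targets. Pan-cardiomyocyte markers had a median of -0.16, which was 0.018 with quantile normalization and 0.011 without obese sample 1. Of these 7, 0 passed in limma and 1 was lower in DESeq2, where 178 of all genes were lower. The 6 atrial myocyte markers were all below 0, with a median of -0.36. It ran from -0.50 without obese sample 3 to -0.27 without obese sample 2. Of these 6, 0 passed in limma or DESeq2. In limma without obese sample 3, 2 were lower, where 124 of all genes were lower, against 40 in the main fit. The part of either marker list in the median of PGC-1 and ERR targets was not tested.

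**Figure D4:**
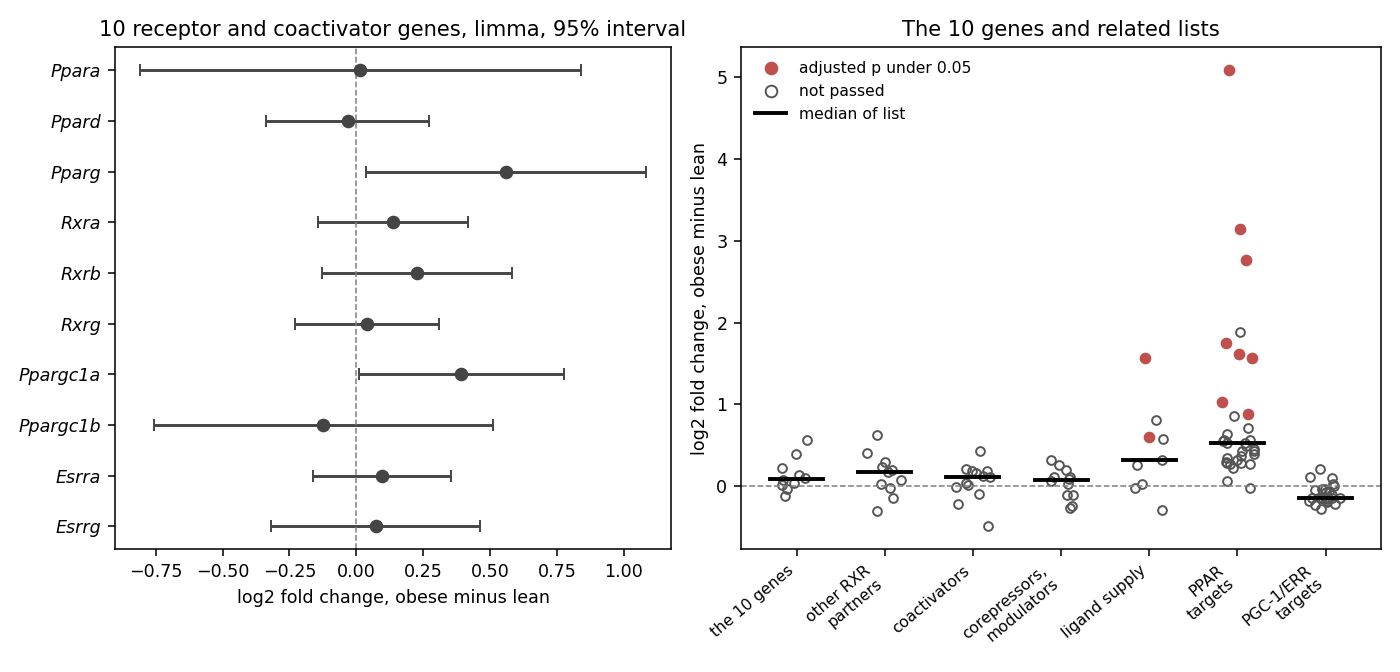
Log2 fold changes (obese minus lean). Left, the 10 genes with limma's 95% intervals, of which only those of Pparg and Ppargc1a leave out 0; right, each tested gene of the 10 and of the related lists as a point, with a bar at the list median, where PPAR targets reach 5.08 (Angptl4) and PGC-1 and ERR targets stay between -0.28 and 0.20.

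PPAR and PGC-1 genes are linked to the circadian clock, and sampling time is not given in the sources used here, so 15 clock genes were read as well. In limma 1 fell at an adjusted p under 0.05 (0.262% of all genes fell), 0 rose, and 7 passed an unadjusted p under 0.05 (12.2% of all genes), 3 higher and 4 lower. DESeq2 called 2 higher and 4 lower, where it called 292 higher and 178 lower of all 15275 genes. Dbp, a clock output factor, had 171, 241 and 154 normalized counts in obese and 499, 547 and 491 in lean samples (log2 fold change -1.46, SE 0.18, adjusted p = 0.00937). Its call was lost without a variance trend (adjusted p = 0.123), without lean sample 2 (0.0613) and without lean sample 3 (0.0523). The related factors Hlf and Tef stood at -0.83 (adjusted p = 0.0616) and -0.76 (0.0668), Per3 at -0.74 (0.0675), Arntl at 0.60 (0.067) and Nfil3 at 0.75 (0.0899). The part of clock phase in the PPAR and PGC-1 values was not tested.

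For Pparg and Ppargc1a, the genes with the most similar profile over the 6 samples were found as those with the smallest root mean square difference of log2 values centred on their own mean. For Pparg, whose own root mean square deviation was 0.40, these were Cfap74 (0.10), the pseudogene Rps15-ps2 (0.10), whose reads are uncertain, and Capn10 (0.12). For Ppargc1a, with a deviation of 0.30, they were Magi1 (0.05), Aldh1l2 (0.06) and Dpp8 (0.06). Magi1 had 296, 406 and 281 normalized counts in obese and 232, 246 and 313 in lean samples, with obese sample 2 highest and lean sample 1 lowest as for Ppargc1a. The genes were picked from all genes tested for this likeness, so it is a description and was not tested. None of these 6 genes had an adjusted p under 0.05 in limma.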

How the data were processed

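Atrial RNA of 3 obese (HFD) and 3 lean (control chow) samples was sequenced as 50 bp single-end reads from directional libraries. The authors aligned the reads to GRCm38 (Ensembl 79) with STAR, annotated uniquely mapped reads to genes with Salmon and scaled them with DESeq2. The deposited signal per gene is the read count divided by a size factor of the sample. Dividing each sample by the worth of 1 read gave whole reads for 100% of values (tolerance 0.01). The authors' columns of fold change, standard error, test statistic, p-values and ranking score were not used.

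Because the values are normalized, limma 3.58.1 in R 4.3.3 (eBayes with trend) was fitted on log2(normalized count + 1) over 15275 genes with a mean of at least 10, without covariates, with adjustment by Benjamini-Hochberg (threshold 0.05). The pseudocount understates changes of low genes. Lengths are exon unions of GENCODE M21, and 1 row without a gene name, with 0 reads, was left out. Ratios had a two-sided exact permutation test. The fit was tested on data simulated with a single dispersion for all genes. There limma recovered 29 of 67 genes changed 1.5-fold and 67 of 67 changed 2-fold, with 14 false calls. A change of 1.5-fold can thus be missed. The simulation does not cover genes of wider spread, such as Ppara (SE 0.37), Ppargc1b (0.29) and Pparg (0.24). For these, larger changes can be missed too, and the recovery of 2-fold changes does not apply. Alternatives were a pseudocount of 0.1, other filters, no variance trend, quantile normalization, mitochondrial genes left out, a replicate block, edgeR 4.0.16 and DESeq2 1.42.0 on recovered reads, and each sample left out.

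The 10 genes and all lists were chosen with earlier results of these data known. Named were the 10 genes, the up to 6 genes of each list with the smallest unadjusted p, markers by summed level, and for each of the 10 with an unadjusted p under 0.05 the 3 genes of most similar profile. Plin2, Plin5, Cpt1a, Cd36, Acadm, Sdha, Vegfa, Adipoq, Lep, Cox8b, Ucp1 and Cidea were named after their values were seen. Some genes that this rule names are not reported here.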

Additional observations from a re-analysis of the deposited data

How the results depend on the processing

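The count of the 10 genes at an adjusted p under 0.05 was 0 in all 16 alternatives, and so was that of PGC-1 and ERR targets, also with each sample left out (0 in each). Of all genes tested 114 were called, against 0 in limma without a variance trend (1717 at an unadjusted p under 0.05), 470 with DESeq2 and 14 to 342 with a sample left out. Of PPAR targets 8 were called, against 0 without a variance trend, 5 with mitochondrial genes left out, 5 with edgeR and TMM, 5 with edgeR and RLE factors, 20 with DESeq2 and 3 to 19 with a sample left out. The cause was not tested.

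With a sample left out, log2 fold changes turned sign for Ppara (-0.36 to 0.45), Ppard (-0.13 to 0.055), Rxrg (-0.018 to 0.10), Ppargc1b (-0.51 to 0.13), Esrrg (-0.11 to 0.19) and Nr4a1 (-0.13 to 1.02), and the log2 ratio difference turned for Ppard to Ppara (-0.51 to 0.42), Rxrg to Rxra (-0.20 to 0.050) and Esrrg to Esrra (-0.24 to 0.17). Those of Pparg to Ppara (0.08 to 0.99) and Ppargc1b to Ppargc1a (-1.0 to -0.08) kept their sign, and so did the log2 fold changes of Pparg, Rxra, Rxrb, Ppargc1a and Esrra in all 16 alternatives.

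The replicate numbers are those of the sample titles, and deviations of same-numbered samples correlated at 0.116, -0.027 and -0.004, so the numbers were not taken to pair the samples. With the replicate number as a block, 0 of the 10 genes, 9 PPAR targets and 157 of all genes were called, and Mgll had an adjusted p of 0.0654. Of the 10 genes Ppara had the lowest mean level, with 57 to 207 reads per sample, and the widest 95% interval, -0.81 to 0.84 on the log2 scale, though its spread among obese samples was wider than counting error.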
